A study of Homo sapiens with 12 samples.

Results

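The neuronal intermediate filament genes NEFL, NEFM, NEFH, INA and PRPH and the stathmin genes STMN1, STMN2, STMN3 and STMN4 were followed through RNA sequencing of neuroblastoma cells carrying short hairpin RNAs. They were taken by gene name from the deposited table of FPKM, which is reads scaled for gene length and depth, giving 9 of its 58735 genes, and all 9 were among the 15856 genes tested. The 12 libraries form 4 groups of 3. The first group is titled SK-N-SH with the hairpin shL5 and has the genotype label TSPYL5 knockdown, and its control is titled SK-N-SH with the hairpin shNC and has the genotype label WT. The other pair has the same 2 hairpins and genotype labels in a line whose titles read SK-N-BE2 and whose other labels read SH-SY5Y, so the neutral name second line is used. The treatment label is None in all 4 groups, and no label tells how hairpins were delivered or if the replicates came from separate cultures. The p-values rest on library-to-library spread alone, which may be technical.

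The libraries held 15425460 to 19249018 reads, worked out from the FPKM values. TSPYL5, the gene named in the knockdown label, had 17.1, 18.3 and 17.8 FPKM in the SK-N-SH libraries labelled knockdown, against 13.1, 13.4 and 12.2 FPKM in those labelled control. It had 13.3, 12.4 and 12.6 FPKM in the second line knockdown, against 24.0, 24.4 and 25.8 FPKM in the second line control. TSPYL5 was thus higher in the SK-N-SH libraries labelled knockdown (log2 fold 0.43, limma with Benjamini-Hochberg adjustment, adjusted p = 7.45e-06), which goes against the label, and lower in the second line knockdown (log2 fold -0.90, limma adjusted p = 9.86e-09). The SK-N-SH libraries labelled knockdown resembled the second line control (Pearson r across genes of 0.986 to 0.987 on the log2 scale) more than the SK-N-SH libraries labelled control (0.705 to 0.724). Likewise, the second line knockdown resembled the SK-N-SH libraries labelled control (lowest r 0.96) more than the second line control (highest r 0.721). Groups are named by their labels, and each direction in either line depends on them. The targeted gene goes against the labels in SK-N-SH and with them in the second line. Whether the labels of either line are right was not tested. Of the markers of noradrenergic neuroblastoma cells, 8 genes including PHOX2A, DBH and CHGA, the summed level was 1147 to 1236 FPKM in the SK-N-SH libraries labelled knockdown, against 74.5 to 86.9 FPKM in their labelled controls. That sum was 58.0 to 73.7 FPKM in the second line knockdown, where TH and DDC were among the markers with 0 reads, against 1299 to 1350 FPKM in the second line control. TH also had 0 reads in the SK-N-SH libraries labelled control.

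Neurofilaments are the intermediate filaments of mature neurons. The light, medium and heavy chains copolymerise with alpha-internexin in central neurons and with peripherin in peripheral ones, and the filaments fill the axon and set its calibre. Stathmins bind tubulin dimers and favour microtubule disassembly until kinases phosphorylate them, and the neuronal members of the family sit on Golgi and growth cone membranes. Neuroblastoma arises from the sympathetic neural crest lineage, and its cultured cells range between a noradrenergic, neurite-bearing state and a mesenchymal, substrate-adherent one.

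Promoter sequence is shown for INA, PRPH, STMN1 and STMN3, from RefSeq on GRCh38.p14, because the 9 genes moved together in the results that follow. Each line gives the 250 bases before a start in the RefSeq table, 5′ to 3′ on the gene's strand. For PRPH, STMN1 and STMN3 the window lies inside the GENCODE gene span given with the gene below, since the starts of the annotations differ. Capitals mark matches to the motifs searched on both strands. These were TATAAA (the TATA box), then CCAAT (the CAAT box), then GGGCGG (the GC box, which reads CCGCCC on the other strand), then CACGTG (the E-box) and lastly TTCAGCACC (the left arm of the binding motif of the neuronal repressor REST). The GC box matches nearest each other in STMN1 adjoin without sharing a base. INA lies at chr10:103276888-103277137, PRPH at chr12:49294897-49295146, STMN1 at chr1:25906420-25906669 (the first of 3 starts in the table) and STMN3 at chr20:63652767-63653016.
INA: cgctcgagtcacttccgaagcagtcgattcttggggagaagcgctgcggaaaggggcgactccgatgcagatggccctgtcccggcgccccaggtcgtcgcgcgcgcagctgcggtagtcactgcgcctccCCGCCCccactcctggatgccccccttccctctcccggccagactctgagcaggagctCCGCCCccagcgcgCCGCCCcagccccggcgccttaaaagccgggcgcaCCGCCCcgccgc
PRPH: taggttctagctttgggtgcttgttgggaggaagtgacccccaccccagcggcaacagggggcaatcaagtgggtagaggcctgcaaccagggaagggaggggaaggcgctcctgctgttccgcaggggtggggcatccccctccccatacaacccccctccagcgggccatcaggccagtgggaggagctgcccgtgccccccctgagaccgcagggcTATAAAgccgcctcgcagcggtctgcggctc
STMN1: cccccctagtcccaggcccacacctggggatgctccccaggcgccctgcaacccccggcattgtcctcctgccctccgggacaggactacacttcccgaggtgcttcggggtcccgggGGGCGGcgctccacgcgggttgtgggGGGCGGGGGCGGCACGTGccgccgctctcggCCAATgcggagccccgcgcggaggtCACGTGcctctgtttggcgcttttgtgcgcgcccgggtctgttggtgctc
STMN3: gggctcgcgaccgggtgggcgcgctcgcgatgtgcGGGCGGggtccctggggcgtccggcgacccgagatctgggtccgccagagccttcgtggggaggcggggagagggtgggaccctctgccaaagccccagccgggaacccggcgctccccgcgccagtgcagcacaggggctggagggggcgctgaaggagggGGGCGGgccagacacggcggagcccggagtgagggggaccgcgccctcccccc
GGGCGG was found 4 times in INA, 3 times in STMN1 and 2 times in STMN3, and 42.3% of the 27305 promoters in the table hold it. PRPH held 1 TATAAA, starting 31 bases before that start, and 11.1% of the promoters hold that motif. CACGTG was found 2 times in STMN1, against 6.49% of the promoters with at least 1 match, and CCAAT once, against 33.0%. The REST arm TTCAGCACC was in none of the 4 windows and is in 0.3% of the promoters. No window of the genes left out was examined, and these include STMN2 and most of the filament genes.

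All 9 genes were higher in the SK-N-SH libraries labelled knockdown than in those labelled control, and all 9 were lower in the second line knockdown than in the second line control. The shift was widest in the filament genes and in STMN2 and STMN4, and narrowest in STMN1 and STMN3. For the first comparison 9 of 9 genes passed in the higher direction, beside 40.7% of all tested genes higher and 39.0% lower, and the median log2 fold was 4.01 over the 9 genes and 0.02 over all tested genes. For the second comparison 9 of 9 passed in the lower direction, beside 40.2% of all tested genes lower and 39.9% higher, and the median log2 fold was -3.80 over the 9 genes and -0.02 over all tested genes. The difference of the effects as labelled, second line less SK-N-SH, was negative and passed for 9 of 9 genes, beside 43.1% of all tested genes lower and 41.8% higher. Its sign and size rest on the labels of both lines, and TSPYL5 goes against those of SK-N-SH. Its size also depends on the pseudocount for genes near the read floor. The sum of the labelled effects, which is the difference with the SK-N-SH direction turned and was chosen after the data were seen, was lower for 5 genes and higher for 1, beside 12.3% of all tested genes lower and 19.0% higher. The 5 were NEFL, NEFM, NEFH, STMN2 and STMN4, the 1 was INA, and PRPH, STMN1 and STMN3 did not pass. This sum adds the log2 folds of the comparisons across the lines given below, so it is not further evidence beside them. In bulk RNA, fewer cells of a type and less RNA per cell cannot be told apart.

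**Figure D1:**
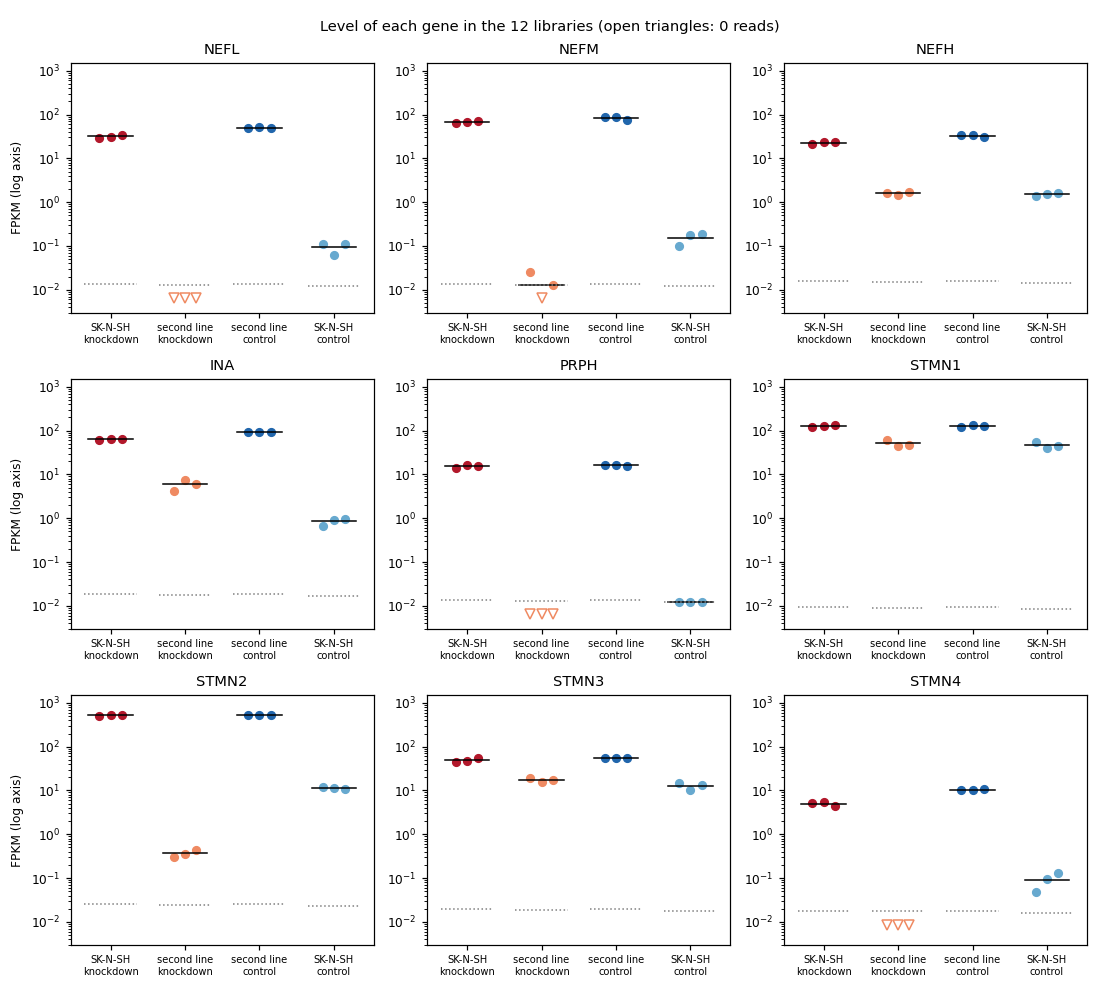
FPKM on a log axis in each library (points) with the group mean (bar) for the 9 genes. Dotted lines mark the level of 3 reads summed over the group, and open triangles below them mark libraries with 0 reads. The SK-N-SH libraries labelled knockdown and the second line control stand above the other 2 groups in every panel, and the remaining groups are 31.4-fold apart for STMN2 and 6.99-fold apart for INA.

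NEFL encodes the light chain, the core on which neurofilaments assemble (ENSG00000277586, GRCh38 chromosome 8, 24950955 to 24957110, minus strand). It had 29.8, 31.5 and 33.7 FPKM in the SK-N-SH libraries labelled knockdown, against 0.112, 0.0611 and 0.111 FPKM in those labelled control, where 5 to 9 reads stood behind each value. The second line knockdown had 0 reads in all 3 libraries, which allows 0.0131 FPKM over the group, against 50.5, 52.4 and 48.8 FPKM in the second line control. Mean FPKM was 335-fold higher in the SK-N-SH libraries labelled knockdown (log2 fold 4.90 ± 0.05 SE on the log2(FPKM + 1) scale, limma adjusted p = 1.09e-14) and at least 3853-fold lower in the second line knockdown (log2 fold -5.69 ± 0.05 SE, limma adjusted p = 3.2e-15).

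NEFM, the medium chain gene with a long side-arm tail, lies beside NEFL with 31856 bases between them and runs the other way (ENSG00000104722, chromosome 8, 24913012 to 24919098, plus strand). Its levels were 64.1, 66.3 and 71.0 FPKM in the SK-N-SH libraries labelled knockdown, against 0.0980, 0.181 and 0.183 FPKM in those labelled control. Second-line libraries with the knockdown had 2, 0 and 1 reads, against 6509, 6442 and 5589 reads in the second line control, which are 86.9, 86.1 and 77.0 FPKM. The level was 436-fold higher in the SK-N-SH libraries labelled knockdown (limma adjusted p = 8.08e-15) and 6568-fold lower in the second line knockdown, with a 95% counting interval of 2247 to 31850 (limma adjusted p = 3.62e-15). An antisense gene, AF106564.1, overlaps NEFM and moved the same way, with a mean of 2.53 ± 0.108 FPKM in the SK-N-SH libraries labelled knockdown, against 0.00699 ± 0.0121 FPKM in those labelled control (SD, n = 3 each). That labelled control level was 1 read over the group. AF106564.1 had 0 reads in the second line knockdown, against 2.36 ± 0.0628 FPKM in the second line control (SD, n = 3). No source used here says whether strand was counted, so reads may not have been told apart where NEFM and AF106564.1 overlap.

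NEFH, the heavy chain whose tail is the most heavily phosphorylated, stayed above 1 FPKM in both low groups, unlike the light and medium chains (ENSG00000100285, chromosome 22, 29480230 to 29491390, plus strand). It had 21.4, 23.2 and 23.4 FPKM in the SK-N-SH libraries labelled knockdown, against 1.39, 1.55 and 1.64 FPKM in those labelled control. Knockdown libraries of the second line had 1.64, 1.44 and 1.74 FPKM, against 34.5, 33.4 and 31.4 FPKM in the second line control. NEFH was 14.8-fold higher in the SK-N-SH libraries labelled knockdown (log2 fold 3.23, limma adjusted p = 1.11e-12) and 20.6-fold lower in the second line knockdown (log2 fold -3.71, limma adjusted p = 3.28e-13).

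INA encodes alpha-internexin, the neuronal filament protein that appears early in development (ENSG00000148798, chromosome 10, 103277163 to 103290351, plus strand). It had 62.4, 63.8 and 63.1 FPKM in the SK-N-SH libraries labelled knockdown, against 0.681, 0.917 and 0.960 FPKM in those labelled control. The second line knockdown had 4.29, 7.60 and 5.97 FPKM, against 93.2, 94.5 and 94.8 FPKM in the second line control. INA was 74.0-fold higher in the SK-N-SH libraries labelled knockdown (log2 fold 5.12, limma adjusted p = 1.67e-11) and 15.8-fold lower in the second line knockdown (log2 fold -3.80, limma adjusted p = 1.9e-10).

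PRPH encodes peripherin, the filament protein of peripheral and sympathetic neurons (ENSG00000135406, chromosome 12, 49293252 to 49298686, plus strand). It had 14.3, 16.1 and 15.5 FPKM in the SK-N-SH libraries labelled knockdown, against 1 read in each SK-N-SH library labelled control. The second line knockdown had 0 reads in all 3 libraries, against 16.5, 16.5 and 15.3 FPKM in the second line control. PRPH was 1250.3-fold higher in the SK-N-SH libraries labelled knockdown, with a 95% counting interval of 427 to 6066 (limma adjusted p = 5.24e-14), and at least 1232-fold lower in the second line knockdown (limma adjusted p = 3.97e-14). Its overlapping antisense gene AC125611.4 had 0.430 ± 0.0702 FPKM in the SK-N-SH libraries labelled knockdown, against 0.0513 ± 0.0342 FPKM in those labelled control (SD, n = 3 each). In the second line that gene had 0.0495 ± 0.0194 FPKM in the knockdown, against 0.441 ± 0.0944 FPKM in the control (SD, n = 3 each), and it was too low to be tested.

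STMN2 encodes the neuronal growth cone stathmin, also called SCG10, and was the highest of the 9 genes per length wherever the neuronal set was high (ENSG00000104435, chromosome 8, 79610814 to 79666175, plus strand). It had 503, 517 and 531 FPKM in the SK-N-SH libraries labelled knockdown, against 12.3, 11.5 and 10.9 FPKM in those labelled control. Knockdown libraries of the second line had 0.305, 0.351 and 0.449 FPKM, against 524, 536 and 525 FPKM in the second line control. STMN2 was 44.6-fold higher in the SK-N-SH libraries labelled knockdown (log2 fold 5.37, limma adjusted p = 7.43e-15) and 1435-fold lower in the second line knockdown (log2 fold -8.60, limma adjusted p = 2.34e-16).

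STMN1 encodes the ubiquitous cytosolic stathmin, oncoprotein 18, which proliferating cells also use (ENSG00000117632, chromosome 1, 25884181 to 25906991, minus strand). It had 119, 126 and 133 FPKM in the SK-N-SH libraries labelled knockdown, against 53.7, 40.3 and 44.0 FPKM in those labelled control. Knockdown libraries of the second line had 59.7, 44.9 and 48.1 FPKM, against 122.5, 134 and 128 FPKM in the second line control. The groups did not overlap in either line. Of all tested genes, 41.6% were higher without overlap in the SK-N-SH libraries labelled knockdown, and 40.8% lower without overlap in the second line knockdown. STMN1 was 2.74-fold higher in the SK-N-SH libraries labelled knockdown (log2 fold 1.44, limma adjusted p = 2.57e-07) and 2.51-fold lower in the second line knockdown (log2 fold -1.32, limma adjusted p = 5.41e-07). Its pseudogenes STMN1P1 and STMN1P2 held at most 3 reads in any group.

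STMN3, the membrane-bound SCLIP, followed the same narrow range (ENSG00000197457, chromosome 20, 63639705 to 63657682, minus strand). It had 44.6, 46.0 and 55.0 FPKM in the SK-N-SH libraries labelled knockdown, against 14.6, 10.4 and 13.1 FPKM in those labelled control. Second-line libraries with the knockdown had 19.4, 15.6 and 17.4 FPKM, against 55.4, 56.0 and 56.3 FPKM in the second line control. STMN3 was 3.82-fold higher in the SK-N-SH libraries labelled knockdown (limma adjusted p = 2.91e-08) and 3.20-fold lower in the second line knockdown (limma adjusted p = 9.05e-08).

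STMN4, a neural stathmin also called RB3, was the lowest of the family (ENSG00000015592, chromosome 8, 27235323 to 27258420, minus strand). It had 5.24, 5.46 and 4.31 FPKM in the SK-N-SH libraries labelled knockdown, against 0.0489, 0.0963 and 0.130 FPKM in those labelled control, where 3, 6 and 8 reads stood behind the values. The second line knockdown had 0 reads in all 3 libraries, against 10.3, 10.3 and 10.6 FPKM in the second line control. STMN4 was 54.6-fold higher in the SK-N-SH libraries labelled knockdown (limma adjusted p = 4.21e-11) and at least 603-fold lower in the second line knockdown (limma adjusted p = 1.8e-12).

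The make-up of the filament RNA differed between the groups that kept it low. The 5 filament genes summed to 199.9 ± 7.44 FPKM in the SK-N-SH libraries labelled knockdown, against 2.64 ± 0.316 FPKM in those labelled control (SD, n = 3 each). They summed to 7.58 ± 1.54 FPKM in the second line knockdown, against 277 ± 8.62 FPKM in the second line control (SD, n = 3 each). NEFM and INA were the largest shares in the 2 high groups, at 33.6% ± 0.704 and 31.6% ± 0.995 of the sum in the SK-N-SH libraries labelled knockdown, and 30.0% ± 1.09 and 34.0% ± 1.29 in the second line control (SD, n = 3 each). INA took 77.8% ± 6.05 of the sum in the second line knockdown, against 32.1% ± 2.13 in the SK-N-SH libraries labelled control (SD, n = 3 each). NEFH took 22.0% ± 5.84 in the second line knockdown, against 58.0% ± 2.28 in the SK-N-SH libraries labelled control (SD, n = 3 each). No library of one low group overlapped the other in either share. Shares of one sum are not independent, and the NEFH level did not pass between these groups (limma adjusted p = 0.605). NEFH had 1.61 ± 0.154 FPKM in the second line knockdown and 1.53 ± 0.127 FPKM in the SK-N-SH libraries labelled control (SD, n = 3 each). Among the stathmins, STMN2 held 74.3% ± 0.741 of the summed FPKM in the SK-N-SH libraries labelled knockdown, against 16.6% ± 1.67 in those labelled control (SD, n = 3 each). STMN2 held 0.547% ± 0.151 in the second line knockdown, against 73.1% ± 0.407 in the second line control (SD, n = 3 each). STMN1 held the largest share in both low groups, 74.0% ± 1.13 in the second line knockdown and 65.3% ± 1.13 in the SK-N-SH libraries labelled control (SD, n = 3 each).

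**Figure D2:**
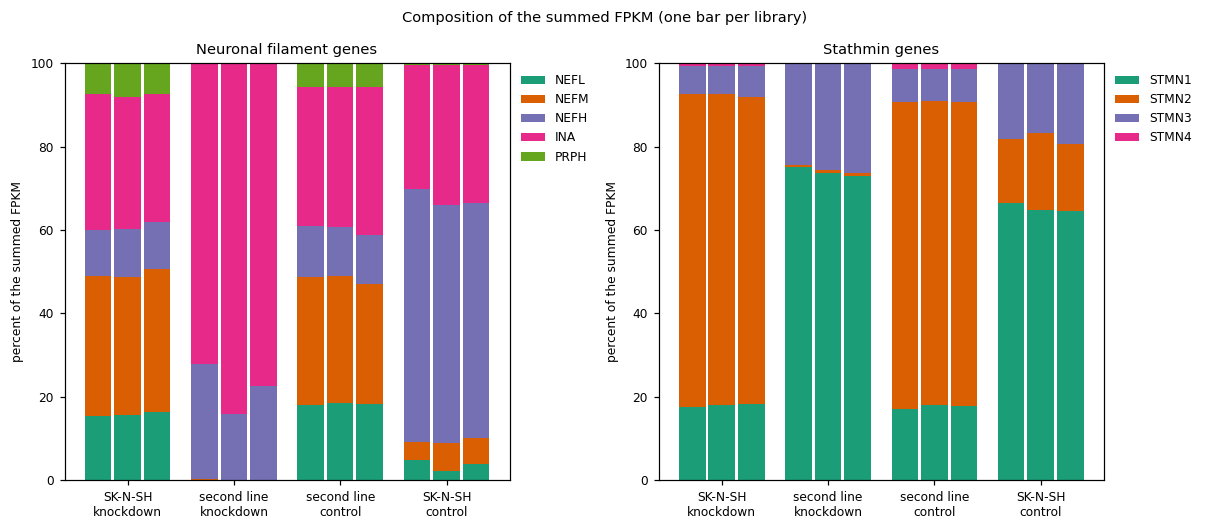
Percent of the summed FPKM of the filament genes (left) and the stathmin genes (right) taken by each gene, with one bar per library. INA leads the filament sum in the second line knockdown and NEFH leads it in the SK-N-SH libraries labelled control, and STMN2 is the largest stathmin share only in the 2 high groups.

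The SK-N-SH libraries labelled knockdown were lower than the second line control in 5 of 9 genes and higher in 0, beside 3.12% of all tested genes lower and 2.26% higher (5.39% in either direction). The count of 0 higher by limma was also 0 at an unadjusted p under 0.05 and 0 with voom, since all 9 log2 folds were negative. NEFL was 1.60-fold lower (log2 fold -0.66, limma adjusted p = 5.21e-05), NEFH 1.46-fold lower (log2 fold -0.53, limma adjusted p = 6.73e-04) and STMN4 2.08-fold lower (log2 fold -0.93, limma adjusted p = 4.99e-05). NEFM was 1.24-fold lower (limma adjusted p = 0.0117) and INA 1.49-fold lower (limma adjusted p = 0.0317), and both calls depended on single libraries and on settings. With a pseudocount of 0.1 neither passed (limma adjusted p = 0.261 for NEFM and 0.0934 for INA), INA did not pass with no filter on low values (0.0716), and NEFM did not pass in the fit of these 2 groups alone (0.057). INA lost its call when any 1 of the 6 libraries was left out (adjusted p up to 0.0966), and NEFM lost its call without replicate 1 or 2 of either group (0.0539 to 0.059). STMN1, STMN2, STMN3 and PRPH did not pass, with log2 folds of -0.02 (95% interval -0.27 to 0.23), -0.03 (-0.15 to 0.08), -0.21 (-0.46 to 0.05) and -0.07 (-0.18 to 0.05). The 6 genes with no overlap between the groups were NEFL, NEFM, NEFH, INA, STMN3 and STMN4, beside 14.2% of all tested genes lower without overlap. TSPYL5 was also lower in this comparison, by 1.40-fold (log2 fold -0.46, limma adjusted p = 4.44e-04).

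Between the 2 low groups, single genes passed in each direction. The second line knockdown was higher than the SK-N-SH libraries labelled control in INA (6.99-fold, log2 fold 1.88, limma adjusted p = 3.54e-06) and in STMN3 (1.37-fold, log2 fold 0.44, limma adjusted p = 0.00989). It was lower in STMN2 (31.4-fold, log2 fold -3.20, limma adjusted p = 5.54e-11) and in NEFM (12.1-fold, 95% counting interval 3.85 to 61.5, limma adjusted p = 0.023). That is 2 of 9 higher and 2 of 9 lower, beside 26.9% of all tested genes higher and 17.2% lower. These counts are near those shares and do not set the 9 genes apart. NEFM lost its call without replicate 2 or 3 of either group (adjusted p 0.0534 to 0.0748), and STMN3 lost its call in the fit of these 2 groups alone (0.0563). NEFL was at least 7.21-fold lower and STMN4 at least 5.32-fold lower in FPKM, with adjusted p of 0.0608 and 0.179 by limma, and both passed with voom on the recovered reads (2.28e-04 and 0.00112). NEFH and STMN1 did not pass, with log2 folds of 0.04 (95% interval -0.09 to 0.18) and 0.14 (-0.11 to 0.39), and PRPH was at or under the floor in both groups. TSPYL5 did not pass between these 2 groups, with a log2 fold of -0.01 (95% interval -0.12 to 0.10).

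**Figure D3:**
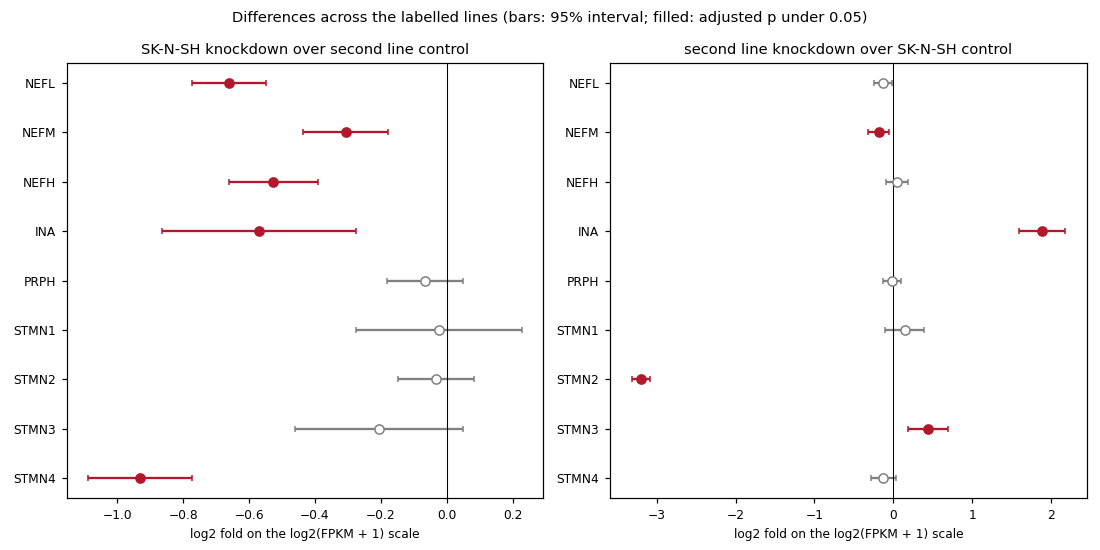
Log2 fold on the log2(FPKM + 1) scale with its 95% interval for the SK-N-SH libraries labelled knockdown over the second line control (left) and the second line knockdown over the SK-N-SH libraries labelled control (right). Filled points have a limma adjusted p under 0.05. On the left the passing genes all lie below 0, down to -0.93 for STMN4, and on the right INA lies at 1.88 and STMN2 at -3.20.

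Control against control, all 9 genes were higher in the second line control than in the SK-N-SH libraries labelled control, beside 40.7% of all tested genes higher and 38.9% lower. The folds ran from 2.78 for STMN1 and 4.40 for STMN3 to 534 for NEFL, 541 for NEFM and 1312 for PRPH (95% counting interval 449 to 6364). This comparison shares its libraries with those above, so its values stand beside them and are not further evidence.

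Other genes of the filament and microtubule systems are given by list. Each list count is to be read beside all tested genes, of which 40.7% were higher and 39.0% lower in the SK-N-SH libraries labelled knockdown, and 39.9% higher and 40.2% lower in the second line knockdown. Of the 7 tested genes for other intermediate filaments, 3 were higher and 4 lower in the SK-N-SH libraries labelled knockdown, and 4 were higher and 3 lower in the second line knockdown, close to those shares. LMNA, a nuclear lamina protein, had 30.6 ± 1.62 FPKM in the SK-N-SH libraries labelled knockdown, against 214 ± 19.4 FPKM in those labelled control (SD, n = 3 each, 6.99-fold lower, limma adjusted p = 1.58e-11). VIM, the vimentin of mesenchymal cells, had 339 ± 18.7 FPKM in the second line knockdown, against 83.3 ± 1.28 FPKM in the second line control (SD, n = 3 each, 4.08-fold higher, limma adjusted p = 4.33e-11).

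Of 16 genes for neurofilament partners (linkers, motors and kinases), 11 were higher and 4 lower in the SK-N-SH libraries labelled knockdown, and 3 were higher and 9 lower in the second line knockdown. KIF5C, a neuronal kinesin, was 139.5-fold higher in the SK-N-SH libraries labelled knockdown (log2 fold 4.50, limma adjusted p = 3.42e-14) and 104-fold lower in the second line knockdown (log2 fold -4.71, limma adjusted p = 2.18e-14). CDK5R2, which encodes an activator of the neurofilament kinase CDK5, was 45.6-fold higher in the SK-N-SH libraries labelled knockdown (limma adjusted p = 1.86e-10) and 283-fold lower in the second line knockdown (limma adjusted p = 2.82e-11). PLEC, a linker between filaments and the cell cortex, moved the other way, 11.9-fold lower in the SK-N-SH libraries labelled knockdown (limma adjusted p = 1.8e-12) and 10.5-fold higher in the second line knockdown (limma adjusted p = 2.52e-12). CDK5 itself and DST moved as PLEC did, passing as lower in the SK-N-SH libraries labelled knockdown and as higher in the second line knockdown. The median log2 fold of the 16 genes was 0.39 in the SK-N-SH libraries labelled knockdown and -0.29 in the second line knockdown, beside 0.02 and -0.02 over all tested genes.

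Of 11 tested genes for stathmin kinases and partners, 8 were higher and 1 lower in the SK-N-SH libraries labelled knockdown, and 2 were higher and 8 lower in the second line knockdown. CAMK4, a calcium-calmodulin kinase that phosphorylates stathmin, was 12.9-fold higher in the SK-N-SH libraries labelled knockdown (limma adjusted p = 4.15e-12) and 11.3-fold lower in the second line knockdown (limma adjusted p = 7.41e-12). UHMK1, another stathmin kinase, was 4.75-fold lower in the SK-N-SH libraries labelled knockdown (limma adjusted p = 1.99e-10) and 4.39-fold higher in the second line knockdown (limma adjusted p = 2.35e-10). Of 12 axonal microtubule and growth cone genes, 10 were higher and 1 lower in the SK-N-SH libraries labelled knockdown, and 1 was higher and 10 lower in the second line knockdown. CRMP1, a collapsin response mediator, was 29.7-fold higher in the SK-N-SH libraries labelled knockdown (limma adjusted p = 8.54e-14) and 38.1-fold lower in the second line knockdown (limma adjusted p = 4.65e-14). Of 10 proliferation genes, 9 were higher and 1 did not pass in the SK-N-SH libraries labelled knockdown, and 7 were lower and 3 did not pass in the second line knockdown. STMN1 is expressed in dividing cells as well. The summed level of the 10 proliferation genes was 638 to 690.2 FPKM in the SK-N-SH libraries labelled knockdown, against 199 to 259 FPKM in those labelled control, and 247 to 346 FPKM in the second line knockdown, against 688 to 698 FPKM in the second line control. Its part in the STMN1 difference was not tested.

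All 8 noradrenergic markers were higher in the SK-N-SH libraries labelled knockdown and all 8 were lower in the second line knockdown. Of 7 tested mesenchymal markers, 1 was higher and 5 lower in the SK-N-SH libraries labelled knockdown, and 6 were higher and 1 lower in the second line knockdown. The 8 mesenchymal markers summed to 161 to 165 FPKM in the SK-N-SH libraries labelled knockdown, against 1406 to 1726 FPKM in those labelled control, and to 1200.3 to 1580.5 FPKM in the second line knockdown, against 165 to 182 FPKM in the second line control. The 6 Schwann cell markers summed to 1.30 to 2.31 FPKM over the 12 libraries, and CDH19 had 0 reads in each group. The part of the cell states in the levels of the 9 genes was not tested.

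REST represses neuronal genes in non-neuronal cells, and its complex recruits KDM1A and HDAC2. REST had 2.10 ± 0.0838 FPKM in the SK-N-SH libraries labelled knockdown, against 5.53 ± 0.427 FPKM in those labelled control (SD, n = 3 each, 2.63-fold lower, limma adjusted p = 6.22e-08). REST had 5.56 ± 0.511 FPKM in the second line knockdown, against 2.16 ± 0.195 FPKM in the second line control (SD, n = 3 each, 2.57-fold higher, limma adjusted p = 7e-08). KDM1A went the other way, with a log2 fold of 1.98 in the SK-N-SH libraries labelled knockdown (limma adjusted p = 6.85e-11) and -2.14 in the second line knockdown (limma adjusted p = 3.21e-11). Of the 7 genes of the REST complex list, 4 were higher and 2 lower in the SK-N-SH libraries labelled knockdown, and 3 were higher and 4 lower in the second line knockdown. REST was not tested as a cause of the levels of the 9 genes.

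**Figure D4:**
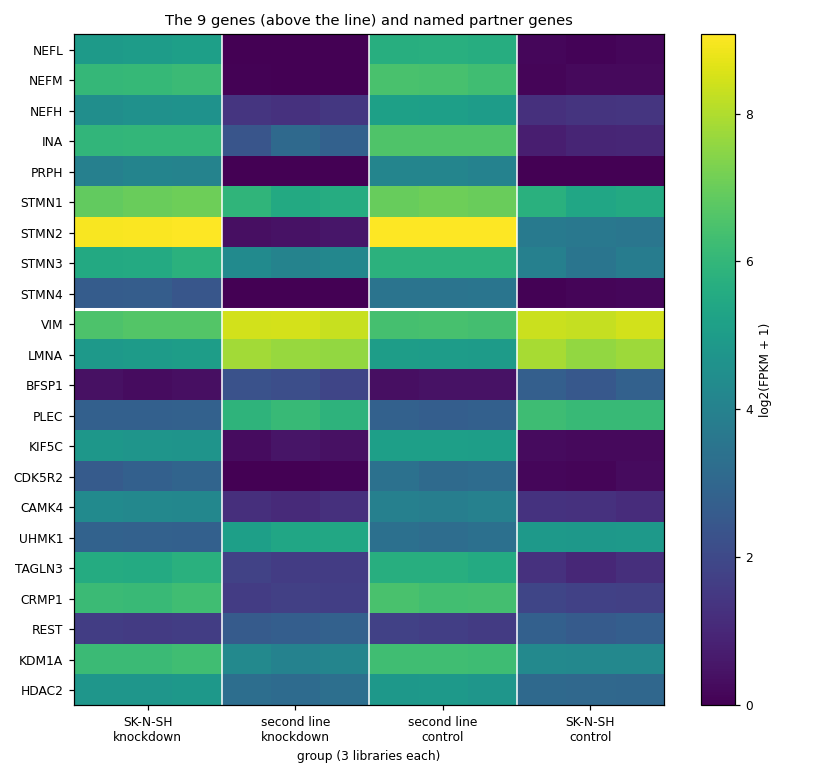
Level on the log2(FPKM + 1) scale in each library for the 9 genes (above the white line) and named genes of the partner, kinase, growth cone, filament and REST lists (below it). The SK-N-SH libraries labelled knockdown have levels close to those of the second line control, and LMNA, VIM, BFSP1, PLEC, UHMK1 and REST run opposite to the 9 genes.

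The nearest tested genes on each side were mixed, where before and after refer to the coordinates and not to the strand. DOCK5, after NEFL, was lower in the SK-N-SH libraries labelled knockdown (log2 fold -0.94, limma adjusted p = 1.83e-08) and higher in the second line knockdown (log2 fold 0.99, limma adjusted p = 1.1e-08). AP1B1 and THOC5, on either side of NEFH, had log2 folds of -0.02 and -0.02 in the SK-N-SH libraries labelled knockdown, with limma adjusted p of 0.732 for each. In the second line knockdown both were higher, with log2 folds of 0.53 for AP1B1 (limma adjusted p = 5.09e-06) and 0.17 for THOC5 (limma adjusted p = 0.0103). DPYSL2, before STMN4, moved with it, with log2 folds of 2.85 in the SK-N-SH libraries labelled knockdown (limma adjusted p = 9.82e-11) and -3.14 in the second line knockdown (limma adjusted p = 3.85e-11). The lincRNA AC138646.1, 296342 bases before STMN2, had a mean of 25.3 ± 5.13 FPKM in the SK-N-SH libraries labelled knockdown (SD, n = 3). Each SK-N-SH library labelled control had 1 read of it, a mean of 0.0843 FPKM. In the second line knockdown it had 2 reads over the group, against 23.5 ± 0.813 FPKM in the second line control (SD, n = 3). RTEL1, on the plus strand, lies on the upstream side of STMN3, which is on the minus strand, with 127 bases between them. It had log2 folds of 0.48 in the SK-N-SH libraries labelled knockdown (limma adjusted p = 1.36e-04) and -0.56 in the second line knockdown (limma adjusted p = 4.08e-05).

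Across the 12 libraries the genes with the most similar profile were sought among 12195 tested protein-coding genes, by the root mean square difference of centred log2(FPKM + 1). Closest to NEFL was DPYSL5 (0.09) and to NEFM was IGFBPL1 (0.19). Next to NEFH stood FAM19A5 (0.08), and next to PRPH stood B3GALNT1 (0.06). This scale understates fold differences between low levels, so near profiles can differ there. FAM19A5 had 0 FPKM in the SK-N-SH libraries labelled control and in the second line knockdown, where NEFH had 1.53 and 1.61 FPKM. STMN1 was closest to ARHGAP11A (0.07) and AURKB (0.07), and STMN3 to GPRIN1 (0.12). STMN4 was closest to TSPAN7 (0.14) and GAP43 (0.15). GAP43 had 8.12 FPKM in the SK-N-SH libraries labelled control and 8.39 FPKM in the second line knockdown, where STMN4 had 0.0917 and 0 FPKM. INA was 0.30 from GATA2, and STMN2 was 0.58 from PHOX2A, so these 2 genes had no profile as near as the others. Among the 9 genes, STMN1 and STMN3 were nearest (0.23) and STMN1 and STMN2 farthest apart (3.04). Profiles were centred and not scaled, so all these distances also grow with the size of a gene's changes between groups.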

How the data were processed

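RNA of 12 neuroblastoma libraries was sequenced, with 3 µg of total RNA per library and a NEBNext Ultra kit per the labels' protocols. The authors deposited a table of FPKM values for 58735 human genes. HISAT2 2.0.5, featureCounts 1.5.0-p3 and the build mm10 are named in the submitters' processing notes, but 58724 genes have the start and end of GENCODE release 29 on GRCh38, the build used for coordinates here. All columns were mapped by sample title and 0 were unmapped. Multiplying the deposited FPKM by length gave multiples of a library constant for 100% of values (tolerance 0.05 reads), from which reads were recovered. The FPKM denominators were proportional to median-of-ratios size factors, not to library totals (ratio to totals 0.913 to 1.06). A group with 0 reads is given the level that 3 reads over the group equal, and such floors and intervals cover counting error only.

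Deposited FPKM was taken to log2(FPKM + 1), and limma 3.58.1 (R 4.3.3) with an intensity trend was used. The 15856 genes averaging 0.5 FPKM or more were tested in one model of 4 group means, with two-sided p-values adjusted by Benjamini-Hochberg over all genes and a threshold of 0.05. Printed folds divide mean FPKM by mean FPKM. The log2(FPKM + 1) scale understates changes of low genes. The fit was also run on simulated libraries with known folds in few genes, smaller than the widest folds here. That run does not bear on the scaling of the deposited FPKM or on groups at the read floor. The 9 genes and the lists were chosen with earlier results of these data known. The text names the 9 genes and TSPYL5, overlapping genes and the nearest tested genes, up to 2 list genes with the largest fold per comparison, REST and the 2 nearest profiles, some of which are given as examples. Genes on chromosome Y were left out of the profile search. Promoter sequences are from RefSeq (GRCh38.p14), with figures drawn in matplotlib 3.10.9.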

Additional observations from a re-analysis of the deposited data

Results flagged for a closer look

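The knockdown effect as labelled differed between the lines for each of the 9 genes in the test of the difference itself, taken as second line less SK-N-SH (log2(FPKM + 1) scale). The differences were -10.59 for NEFL, -12.26 for NEFM, -6.94 for NEFH, -8.92 for INA and -8.10 for PRPH. They were -2.76 for STMN1, -13.96 for STMN2, -3.49 for STMN3 and -5.97 for STMN4. Each passed limma with Benjamini-Hochberg adjustment, beside 43.1% of all tested genes with a difference in that direction. TSPYL5 differed by -1.33 (limma adjusted p = 4.07e-09), since it was higher in the SK-N-SH libraries labelled knockdown, against the label. The sign and size of each difference rest on the labels of both lines. With the SK-N-SH direction turned, an alternative chosen after seeing the data, the value was -0.79 for NEFL, -0.49 for NEFM, -0.48 for NEFH, 1.31 for INA, -3.23 for STMN2 and -1.06 for STMN4, each with an adjusted p under 0.05 by limma. It was -0.08 for PRPH, 0.12 for STMN1 and 0.23 for STMN3, with limma adjusted p of 0.426, 0.612 and 0.31. These turned values add the log2 folds of the comparisons across the lines given above and are not further evidence. Whether the labels are exchanged was not tested.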

How the results depend on the processing

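The calls of the 9 genes in the knockdown comparisons of both lines, in their difference and in control against control were the same under the other pseudocount, filters, scaling, voom, the fit of the groups compared, the replicate block and each library left out (the fit of the groups compared was not run for the difference, which uses all 4 groups). With the SK-N-SH direction turned in the difference, chosen after seeing the data, 4960 genes were called, 5 of the 9 genes were lower and 1 was higher, and INA (1.31), STMN1 (0.12) and STMN3 (0.23) changed sign. Of the SK-N-SH libraries labelled knockdown over the second line control, 3 of the 9 genes were lower with a pseudocount of 0.1, 4 with no filter, 4 with the groups compared and 3 to 4 when a library was left out, where 469 to 637 genes were called among all tested genes, against 854. Of the second line knockdown over the SK-N-SH libraries labelled control, 4 were lower with a pseudocount of 0.1, 4 with voom, 4 with the groups compared and 1 to 2 when a library was left out, and 1 was higher with the groups compared. The replicate numbers do not pair the samples (correlations of deviations -0.0751 to 0.102), and with the replicate block 9 of 9 genes kept their call in each knockdown comparison. Rescaling to library totals moved the median log2 fold of all genes to -0.14 in the second line knockdown comparison and to -0.20 in the difference. The cause of these changes was not tested.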
